A study of Oryza sativa with 6 samples.

Results

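Chlorophyll is made in the plastid from glutamate through a branch of tetrapyrrole synthesis. Magnesium chelatase, an enzyme of the subunits CHLD, CHLH and CHLI, inserts magnesium into protoporphyrin IX and so commits the pathway to chlorophyll. Protochlorophyllide oxidoreductase (PORA and PORB) then reduces protochlorophyllide in a step that needs light, and chlorophyll synthase (CHLG) adds the tail. In rice PORA is known from dark-grown and early greening leaves, and PORB from leaves throughout development. In breakdown, NYC1 and NOL form the chlorophyll b reductase that turns chlorophyll b toward chlorophyll a, and SGR, the stay-green protein, takes part in removing magnesium from chlorophyll a. Loss of any of these proteins in rice is known to keep leaves green during senescence.

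The levels of these chlorophyll synthesis and breakdown genes were taken from Affymetrix rice genome arrays, on which sets of short probes report each transcript. The members were found by symbol or synonym in a RefSeq gene table joined by gene number to the array's annotation. Of 10 names searched, 9 led to a gene with a probe set, 6 genes of synthesis and 3 of breakdown, with 12 probe sets in all, among 17905 annotated genes and 57381 probe sets on the array. The name not found was CAO1, the oxygenase that makes chlorophyll b. One gene, LOC4349433, carries the synonym CAO together with Lls1, the name of a maize gene of chlorophyll breakdown, so its role is not settled by the table and its values are given apart from the members. The genes were named after a first look at the contrast between RNAi and control leaves, and were in that sense selected on its log2 fold changes, PORA being among the larger rises. Fold changes and calls of the members in that contrast are therefore descriptions, and they support nothing beyond the values themselves.

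Young leaves came from 11-day-old seedlings of the indica rice variety Minghui63. The controls were wild-type plants (3 arrays), and the RNAi plants (3 arrays) carried an inverted repeat against the 3' untranslated region of OsSRT1, a sirtuin gene, in the same variety. The RNAi leaves were taken before their lesions appeared. The labels do not give the promoter of the construct. The titles number the RNAi samples LM1 to LM3 without saying whether these are separate lines, so the p-values speak only of the spread among these samples, which may in part be technical. A growth note with a light and dark cycle stands on the label of 1 control sample. No probe set was named OsSRT1, so the knockdown itself was not analysed here. The hybridization entries of the array records give 1 date and time to the controls and a later one to the RNAi arrays. The effects of hybridization date and time and of genotype therefore cannot be told apart.

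Signals were brought to a common trimmed mean of 500, since control replicate 3 had been deposited on a scale of 500.1 against 99.86 to 117.8 for the other arrays. Fold changes are differences of log2(signal + 16), RNAi minus control, from a limma fit over the 28597 probe sets in the upper 50% by mean signal, with their standard errors (SE). Of the 12 member probe sets 11 passed that filter, and so did at least 1 probe set of each of the 9 genes. Leaf markers were high on every array except RBCS1, whose signals were 11.8 to 41.3, with summed signals of 96842 to 116736 in the controls and 91112 to 106024 in the RNAi leaves for 4 genes of rubisco, rubisco activase and a chlorophyll-binding protein. The summed dividing-cell markers were 697.4 to 734.1 and 459.8 to 762.7 for 5 genes, the low value being that of RNAi replicate 1. PCNA gave most of that sum, with 329.7 in RNAi replicate 1 and 560.1 to 643.9 on the other arrays. The summed seed markers were 1251 to 1441 and 1247 to 1435 for 3 genes. One seed gene, GLUA2, gave nearly all of the seed sum, through 1 probe set with signals of 1243 to 1437. A second GLUA2 probe set read only 30.65 to 88.5. There every RNAi array lay above every control array, as was so for 12.5% of all tested probe sets. Its log2 fold change was 0.71 (limma adjusted p = 0.329). The root and pollen marker names led to no probe set. In whole leaves, fewer cells of a type and less RNA per cell cannot be told apart.

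PORA (LOC4337415) was the member that rose. Its scaled signal was 1486, 674 and 1329 in control replicates 1, 2 and 3 and 3496, 3025 and 4420 in RNAi replicates 1, 2 and 3. Every RNAi array lay above every control array, and the lowest RNAi signal was above the highest control signal by more than the whole control range. The means were 1163 ± 431 (SD, n = 3) and 3647 ± 710, a ratio of 3.14 and a log2 fold change of 1.70 ± 0.28 (SE, 95% interval 1.06 to 2.33, limma adjusted p = 0.0175). Among all tested probe sets 2.10% were called in either direction, 1.09% higher and 1.01% lower, shares from which nothing is read here because the contrast was known when PORA was chosen. SAM, the test the submitters name, also called PORA, as it did 1.93% of tested probe sets. Leaving out 1 array at a time gave log2 fold changes of 1.35 to 1.91, and the adjusted p was 0.0676 without RNAi replicate 3, the array with the highest PORA signal. Without an intensity trend in the variance model the adjusted p was 0.0831. On the signals as deposited, without rescaling, the log2 fold change was 1.02 and the call was lost (limma adjusted p = 0.836). Those signals keep the larger scale of control replicate 3, and the median log2 fold change over all tested probe sets was then -0.52. The lost call is therefore not particular to PORA.

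PORB (LOC4349004), which encodes the second oxidoreductase, did not pass the threshold. Its signal was 5289, 3819 and 3972 in the controls and 3588, 3763 and 4014 in the RNAi leaves. The groups overlapped, and control replicate 1 stood above the other 5 arrays. The log2 fold change was -0.19 ± 0.14 with a 95% interval of -0.50 to 0.13, and -0.04 without control replicate 1. The suffix of its only probe set (_x) marks probes that resemble other transcripts, so signal from related genes cannot be told apart from PORB. Measured on the same array, with each gene set to its own control mean, PORA minus PORB was 0.13, -0.52 and 0.39 on the log2 scale in the controls and 1.92, 1.64 and 2.09 in the RNAi leaves. The RNAi mean of that difference was 1.88 ± 0.23 (SD, n = 3).

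**Figure D1:**
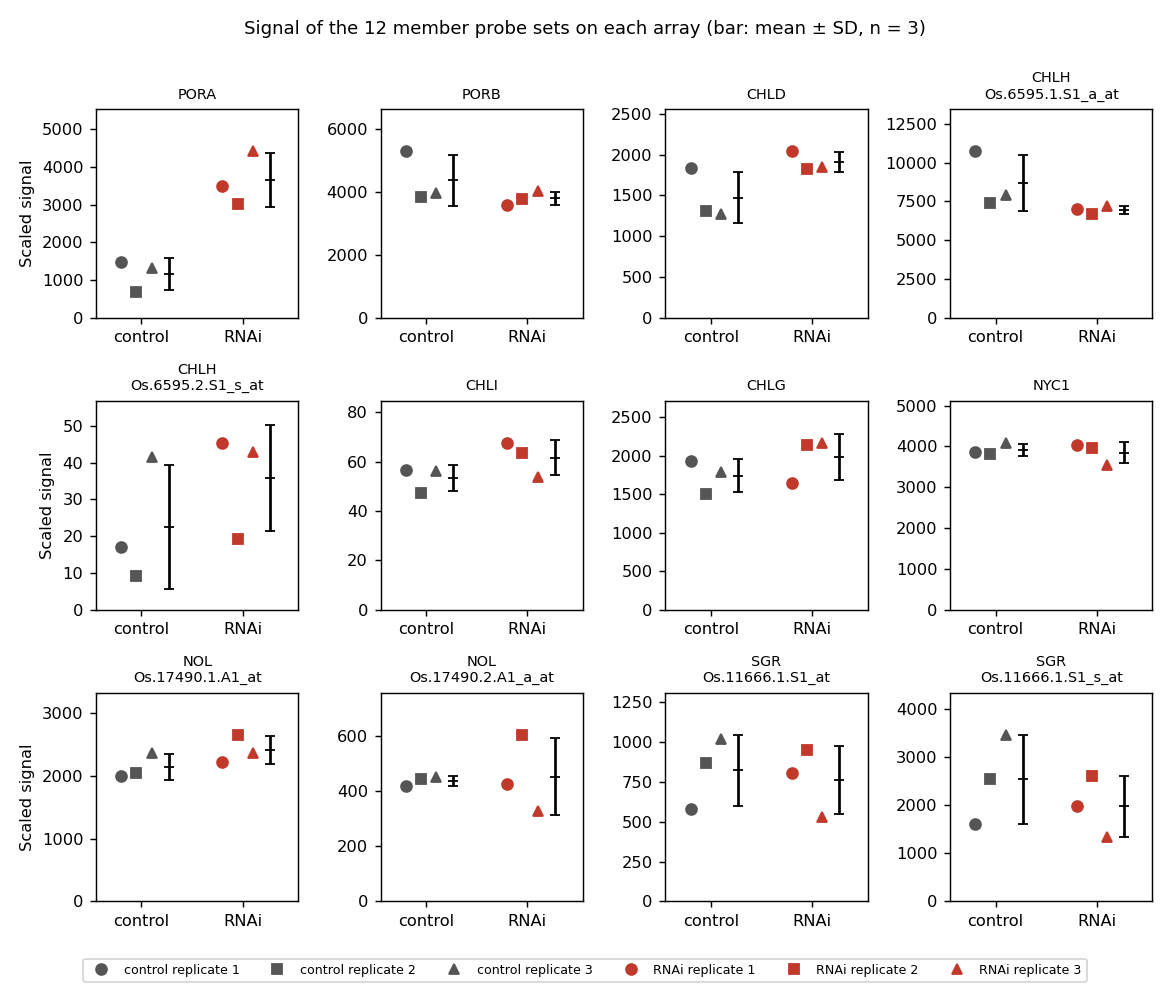
Scaled signal (vertical axis, linear from 0) of each member probe set on the 3 control arrays (grey) and 3 RNAi arrays (red), with symbols for the replicate number and a bar for the mean ± SD of each group. PORA is higher on all 3 RNAi arrays (3025 to 4420) than on any control array (674 to 1486). On its stronger probe set CHLH is lower on all 3 RNAi arrays (6680 to 7206) than on any control array (7378 to 10748). The groups overlap for the second CHLH probe set and for PORB, CHLD, CHLI, CHLG, NYC1, NOL and SGR.

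The magnesium chelatase subunits had small differences in opposite directions, none of them past the threshold. CHLD (LOC4334537), a subunit of the ATP-driven part of the enzyme, had signals of 1833, 1308 and 1276 in the controls and 2044, 1828 and 1848 in the RNAi leaves. Control replicate 1 reached into the RNAi range, so the groups overlapped. The log2 fold change of CHLD was 0.39 ± 0.16 (95% interval 0.02 to 0.75, limma adjusted p = 0.286), and 0.55 without control replicate 1.

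CHLH (LOC4332690), the subunit that binds the porphyrin, had 10748, 7378 and 7945 in the controls and 7010, 6680 and 7206 in the RNAi leaves. All RNAi values lay below all control values, though RNAi replicate 3 was close to control replicate 2. The log2 fold change of CHLH was -0.30 ± 0.14 (95% interval -0.62 to 0.02, limma adjusted p = 0.352), and -0.14 without control replicate 1. A second CHLH probe set, with signals of 9.04 to 45.4, was below the filter and was not tested. Its groups overlapped, and its log2 difference was 0.47, opposite in sign to that of the first. CHLI (LOC4333259), the other subunit of that part, was read by a probe set of low signal, 47.5 to 56.8 in the controls and 53.6 to 67.7 in the RNAi leaves. Its groups overlapped and its log2 fold change was 0.16 with an interval of -0.46 to 0.77, wide enough to hold a change of either sign.

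Within an array CHLD and CHLH separated more clearly than either gene alone. With each gene set to its control mean, CHLD minus CHLH was 0.01, 0.07 and -0.07 in the controls and 0.78, 0.69 and 0.59 in the RNAi leaves. Control replicate 1, which was highest among the controls for both genes, did not stand out in this difference. The RNAi mean was 0.69 ± 0.09 against a control SD of 0.07 (n = 3). The pair was singled out after its values were seen, and no test is given. Of all 36 pairs of the 9 genes, 15 had groups that did not overlap, namely all 8 pairs with PORA and 7 of the 28 others. The 7 were CHLD with PORB or CHLH, CHLG with PORB or CHLH, CHLI with CHLH or NYC1, and CHLH with NOL. The pairs share genes and arrays and are not independent of each other. The matching share for pairs of other genes was not computed, so nothing particular to the members is read from this count. For single probe sets, 22.4% of all those tested had groups that did not overlap, 12.5% with the RNAi arrays higher and 9.88% with them lower. By gene, at the probe set of highest signal, 2 of the 9 members did, PORA upward and CHLH downward.

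**Figure D2:**
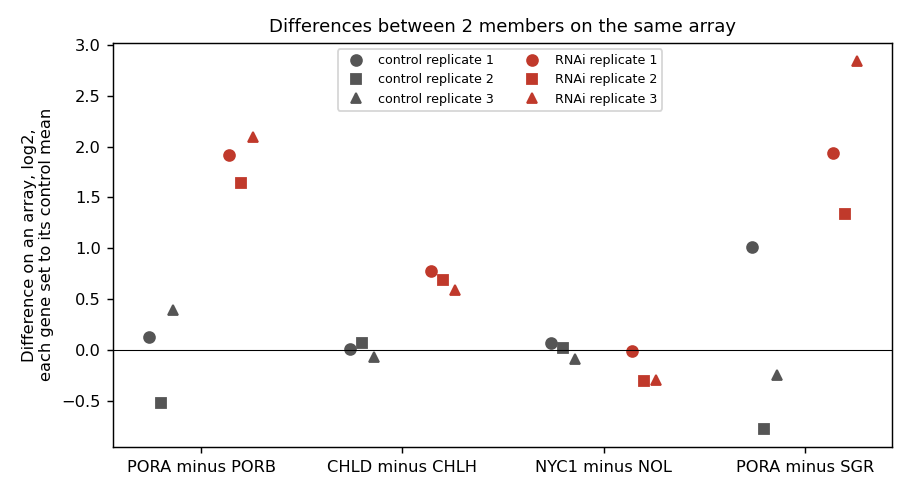
Difference between 2 members on the same array (vertical axis, log2, each gene first set to its own control mean), for 4 pairs, with control arrays in grey and RNAi arrays in red. CHLD minus CHLH lies between -0.07 and 0.07 in the controls and between 0.59 and 0.78 in the RNAi leaves, PORA minus PORB lies above the controls in all 3 RNAi arrays, and NYC1 minus NOL overlaps between the groups.

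CHLG (LOC4338498), chlorophyll synthase, had signals of 1931, 1503 and 1793 in the controls and 1641, 2138 and 2168 in the RNAi leaves. RNAi replicate 1 lay inside the control range and the other RNAi arrays above it. The log2 fold change was 0.18 ± 0.16 with an interval of -0.17 to 0.53. The gene with the synonyms CAO and Lls1 had 6554, 5442 and 4991 in the controls and 8330, 6171 and 6141 in the RNAi leaves. Its groups overlapped, and its log2 fold change was 0.27 ± 0.15 (limma adjusted p = 0.429).

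None of the 3 breakdown genes passed the threshold. NYC1 (LOC4327178), the membrane-bound subunit of chlorophyll b reductase, had 3858, 3811 and 4088 in the controls and 4044, 3951 and 3555 in the RNAi leaves. These 6 values were close together, with a log2 fold change of -0.03 ± 0.10 and a 95% interval of -0.26 to 0.21. NOL (LOC4333604), its partner in the reductase, had 1997, 2050 and 2370 in the controls and 2223, 2655 and 2364 in the RNAi leaves on its stronger probe set. The groups overlapped and the log2 fold change was 0.17 ± 0.13 (interval -0.11 to 0.46). The weaker NOL probe set had a control range of 418.6 to 451.6 and spread in the RNAi leaves from 329 in replicate 3 to 605.6 in replicate 2, with a log2 fold change of 0.01 ± 0.22.

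SGR (LOC4347672) varied most between replicates among the breakdown genes. On its stronger probe set it had 1608, 2543 and 3454 in the controls and 1981, 2605 and 1335 in the RNAi leaves. The lowest RNAi array was replicate 3, and the control arrays alone spanned more than the distance between the group means. The log2 fold change was -0.34 ± 0.30 with an interval of -1.03 to 0.34. The suffix of that probe set (_s) marks it as shared between transcripts. The second probe set gave 577.6, 871.4 and 1020 in the controls and 809.2, 953.6 and 531.7 in the RNAi leaves, with a log2 fold change of -0.11 ± 0.26. Its order of the arrays was the same as that of the first, with a Pearson correlation of 0.96 over the 6 arrays. The correlation was 0.45 for the NOL probe sets and -0.25 for the CHLH probe sets, of which the second was below the filter. These values describe probe sets assigned to the same gene.

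Counted by gene, 1 of the 9 members rose, 0 fell and 8 did not pass in the limma fit. At an unadjusted p under 0.05, 2 of the 9 differed, PORA and CHLD, where 15.6% of all tested probe sets did. The median log2 fold change was 0.17 over the 6 synthesis genes and -0.03 over the 3 breakdown genes, beside 0.03 over all tested probe sets. Without the rescaling of the arrays, CHLD, CHLI, CHLG and NOL had negative log2 fold changes, as did 94.1% of tested probe sets, whose median was then -0.52.

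**Figure D3:**
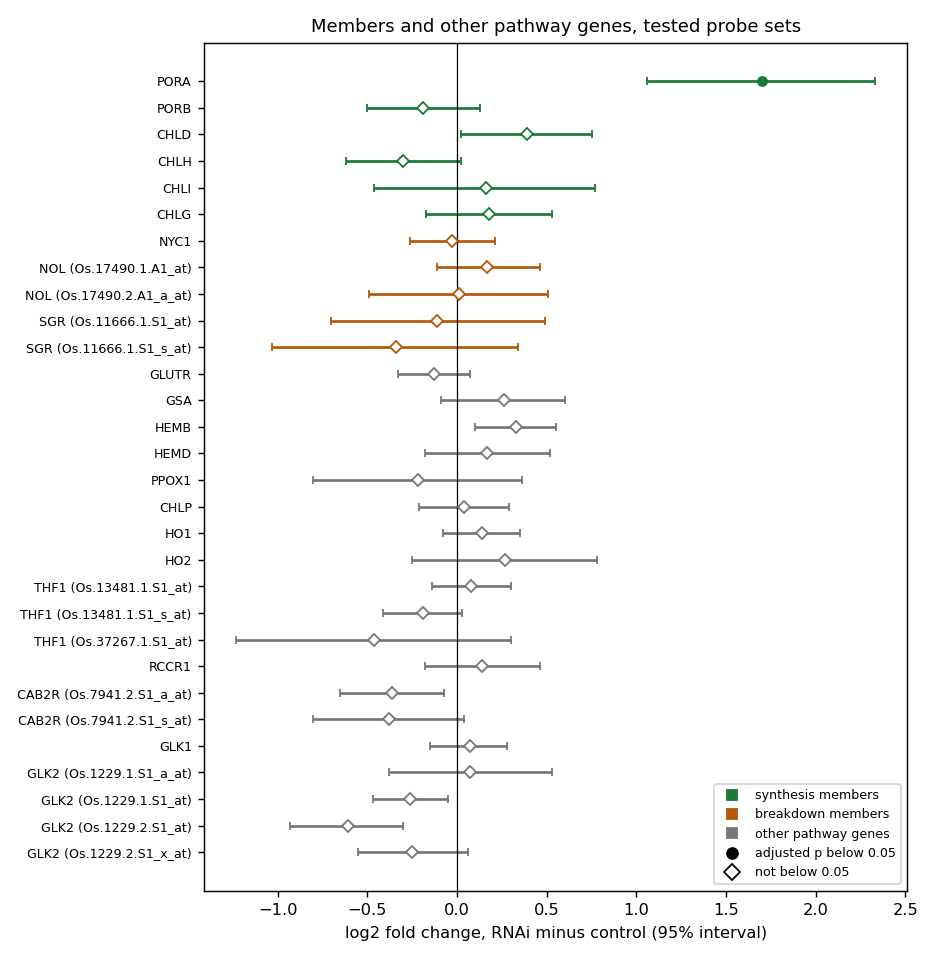
Log2 fold change of RNAi against control (horizontal axis, with 95% intervals from limma, n = 3 per group) for the 11 tested member probe sets and for the tested probe sets of the other pathway genes. PORA, at 1.70, is the filled point, whose adjusted p is under 0.05, and the other points lie between -0.61 and 0.39.

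Set against each other on each array, synthesis minus breakdown overlapped between the groups. For each array the log2 difference of every gene from its control mean was averaged over the 6 synthesis genes and over the 3 breakdown genes. The synthesis mean was 0.27, -0.26 and -0.01 in the controls and 0.30, 0.29 and 0.38 in the RNAi leaves. All RNAi arrays lay above all control arrays, by a margin of only a few hundredths over control replicate 1. Without PORA the synthesis mean was 0.24, -0.17 and -0.06 in the controls and 0.03, 0.05 and 0.06 in the RNAi leaves, inside the control range.

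The breakdown mean was -0.23, -0.01 and 0.24 in the controls and -0.06, 0.14 and -0.28 in the RNAi leaves. RNAi replicate 3 was the lowest of all arrays on the breakdown side and, with PORA included, the highest on the synthesis side. Without PORA, control replicate 1 was the highest on the synthesis side (0.24, against 0.06 for RNAi replicate 3). Synthesis minus breakdown was 0.50, -0.25 and -0.25 in the controls and 0.36, 0.14 and 0.66 in the RNAi leaves. The groups overlapped through control replicate 1. The RNAi mean of 0.39 ± 0.26 was smaller than the control SD of 0.43, and it was 0.11 without PORA. It was 0.64 without control replicate 1 and 0.25 without RNAi replicate 3.

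Part of this spread came from the control arrays themselves. Control replicate 1 had the highest control signal for 6 of 6 synthesis genes, and control replicate 2 the lowest for 5 of 6. Control replicate 3 had the highest control signal for 3 of 3 breakdown genes. In the RNAi leaves replicate 3 was highest for 4 of 6 synthesis genes and lowest for 2 of 3 breakdown genes. Excluding PORA, the spread of the synthesis mean was 0.21 (SD) over the controls and 0.02 over the RNAi leaves. What set the control arrays apart was not tested.

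**Figure D4:**
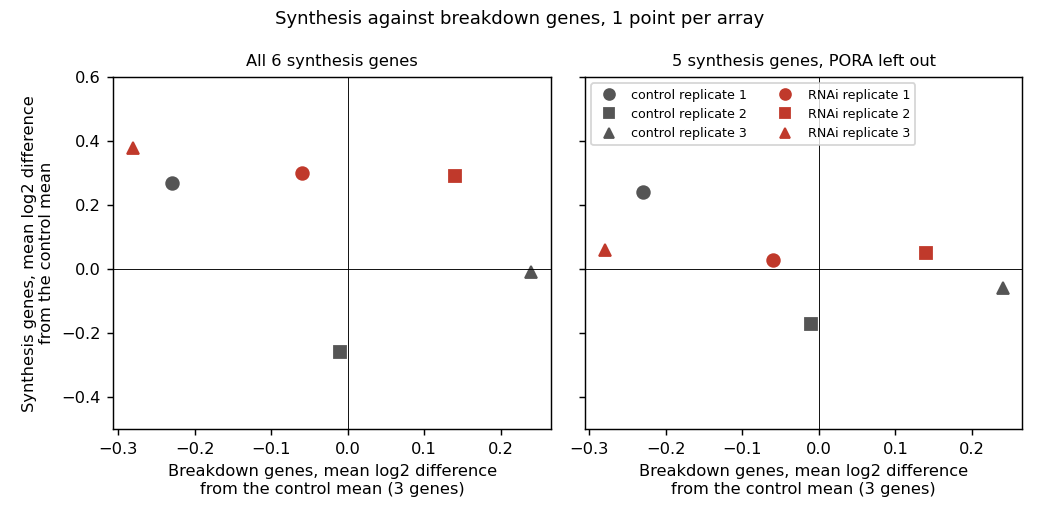
Mean log2 difference from the control mean for the synthesis genes (vertical axis) and the 3 breakdown genes (horizontal axis), 1 point per array, with all 6 synthesis genes on the left and without PORA on the right. With PORA the RNAi arrays lie at 0.29 to 0.38 on the synthesis axis, and without it at 0.03 to 0.06, within the control range of -0.17 to 0.24.

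None of the other genes of the pathway that could be named passed the threshold. Of 13 such genes tested, all matched by name, 0 rose and 0 fell in the limma fit, where 2.10% of all tested probe sets were called. At an unadjusted p under 0.05, 2 of the 13 differed, beside 15.6% of all tested probe sets, and SAM called 0, beside 1.93%. Their log2 fold changes ran from -0.38 to 0.33 around a median of 0.08. In 3 of the 13 the groups did not overlap, beside 22.4% of all tested probe sets. Most of the names searched led to no probe set, so the 13 genes cover only part of the pathway. For the other synthesis genes 39 names, some of them synonyms, gave 6 genes, and for light-harvesting proteins 31 names gave 1.

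The 6 other synthesis genes were GluTR, GSA, HEMB, HEMD, PPOX1 and CHLP. HEMB, which makes porphobilinogen, had 4319, 3837 and 4308 in the controls and 5317, 5087 and 5243 in the RNAi leaves. The RNAi values lay close together and above all controls, with a log2 fold change of 0.33 ± 0.10 (limma adjusted p = 0.152). GSA, an aminotransferase of aminolevulinic acid synthesis, had a log2 fold change of 0.26 ± 0.15 (limma adjusted p = 0.463). GluTR, the glutamyl-tRNA reductase that starts the pathway, had 14437 to 16274 in the controls and 13051 to 14089 in the RNAi leaves. All RNAi values were below the controls, with a log2 fold change of -0.13 ± 0.09 (limma adjusted p = 0.516). HEMD, uroporphyrinogen III synthase, had 0.17 ± 0.15 on the same scale. PPOX1, protoporphyrinogen oxidase, had a log2 fold change of -0.22, and CHLP, which reduces the geranylgeranyl tail, one of 0.04. On the branch from heme to bilins, the heme oxygenase genes HO1 and HO2 had log2 fold changes of 0.14 and 0.27 and overlapping groups.

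Further down the breakdown pathway, RCCR1, a red chlorophyll catabolite reductase, had a log2 fold change of 0.14 ± 0.14 and THF1, a thylakoid protein whose loss also delays yellowing in rice, one of 0.08 ± 0.10 on its strongest probe set. Both had overlapping groups on these probe sets. A second THF1 probe set, whose suffix (_s) marks it as shared between transcripts, had 9099 to 10627 in the controls and 8230 to 8972 in the RNAi leaves. Its groups did not overlap, with a log2 fold change of -0.19 (limma adjusted p = 0.382). The weakest THF1 probe set gave -0.46 with overlapping groups. CAB2R, a light-harvesting protein that binds the product, had 36857, 35451 and 30703 in the controls and 18862, 29290 and 33008 in the RNAi leaves on its strongest probe set. RNAi replicate 1 was the low array there, and the log2 fold change was -0.38 ± 0.19 (limma adjusted p = 0.374). A second CAB2R probe set gave -0.36 ± 0.13 (limma adjusted p = 0.225). There every RNAi array (18535 to 24568) lay below every control array (25093 to 31497), as was so for 9.88% of all tested probe sets. GLK1 and GLK2 are factors that activate chlorophyll synthesis and light-harvesting genes. GLK1 had a log2 fold change of 0.07 ± 0.10. Of the 4 probe sets of GLK2, 3 had every RNAi array below every control array, beside 9.88% of all tested probe sets. Their log2 fold changes were -0.26 on the strongest and -0.61 and -0.25 on others. Probe sets of 1 gene are not independent of each other, and the suffix of the one at -0.25 (_x) marks probes that resemble other transcripts. The fourth, at 0.07, had overlapping groups, and none of the 4 passed the threshold. The one at -0.61 had 2267, 2832 and 2497 in the controls and 1876, 1490 and 1592 in the RNAi leaves (limma adjusted p = 0.066), and it passed when 1 of the 6 arrays was left out, but not for the other 5.

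Among annotated probe sets of other genes, those closest to PORA over the 6 arrays were LOC9268161 (Pearson correlation 0.998), LOC4336649 (0.996), LOC4334723 (0.995), LOC4336013 (0.995) and LOC4338069 (0.992). The closest, LOC9268161, had signals of 242.4, 166 and 219.5 in the controls and 356, 338.4 and 390.5 in the RNAi leaves. Like PORA it was lowest in control replicate 2 and highest in RNAi replicate 3, with a smaller log2 fold change of 0.76 (limma adjusted p = 0.0977). None of the 5 passed the threshold. Correlations above 0.95 were found at 190 of 17926 probe sets searched, the arrays fall into only 2 groups, and the values share the same 6 RNA samples, so the likeness is a description.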

How the data were processed

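The authors deposited 1 linear intensity for each probe set and array, and the submitters' processing notes name GCOS 1.2. The sources used here do not state how probes were summarised or arrays scaled. Detection calls were not used. Each array was scaled to a 2%-trimmed mean of 500, and log2(signal + 16) was used. From the 57381 probe sets, the 187 for controls and reporters were removed, then the lower 50% by mean log2 signal, which left 28597. Groups and replicate numbers came from the titles. The comparison of RNAi with control arrays (3 each) used limma 3.58.1 (R 4.3.3, eBayes with trend, two-sided, Benjamini-Hochberg over all tested probe sets, threshold 0.05). The test was checked on simulated data. SAM used all 20 label permutations at 5% false discovery.

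Gene names came from the platform annotation and the RefSeq table of assembly ASM3414082v1. A gene with several probe sets was counted by that of highest mean signal. The members and lists were chosen with earlier results of these data known. Named were all members, up to 4 genes per pathway list by adjusted p, and the 5 probe sets most correlated with PORA. PPOX1 and CHLP, both in the synthesis list, and the CHLD and CHLH pair were named beyond this rule after their values were seen. FC1 and bZIP1 in the gene table are other genes than those meant and were left out. Of 4 photosystem genes added after the annotation was seen, 0 passed. Their log2 fold changes were below 0 for 3 and above 0 for 1, with a median of -0.25. In 2 of the 4 every RNAi array lay below every control array, beside 9.88% of all tested probe sets. Alternatives covered scaling, pseudocount, filter, trend, block, SAM, probe set suffix and leaving out each array. The number of arrays limits the precision.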

Additional observations from a re-analysis of the deposited data

How the results depend on the processing

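The fit reported above called 601 probe sets. Separate totals, whose overlap with the 601 was not counted, were 37 without rescaling (64.9% of them higher in RNAi leaves, against 51.9%), 394 with no filter and 303 without the trend, and 240 to 877 when 1 array was left out. PORA was the 1 member gene called. The count of called members was 0 without rescaling (PORA 1.02, adjusted p = 0.836), 0 without the trend, and 0 to 1 when 1 array was left out, 0 being the value without RNAi replicate 3. In the other alternatives, SAM and both pseudocounts included, it was 1. Per the array records, same-numbered control and RNAi arrays shared a fluidics module (1, 2 or 3), so the replicate block is also a block for module. The deviations of same-numbered arrays from their group means correlated by -0.0452, 0.00838 and 0.00207, and control replicate 1 correlated best with RNAi replicate 3. With the replicate block 424 probe sets were called and PORA had an adjusted p of 0.00994.

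The alternative runs reuse the same arrays, and all except the run without PORA include that gene, so a shared sign is only a description. Synthesis minus breakdown kept its sign in all of these runs. It was 0.25 to 0.64 when 1 array was left out, 0.57 without probe sets marked _x, _s or _a, 0.14 by the median over genes, 0.32 and 0.26 with the breakdown or the synthesis side extended, and 0.11 without PORA. With the CAO gene added to the synthesis side it was 0.38 and without SGR 0.25, both alternatives chosen after seeing the data. The CAO gene was not tried on the breakdown side.

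Of 160 member values under an alternative, 13 changed sign, all for probe sets that had not passed. Without rescaling these were CHLD (-0.24), CHLI (-0.32), CHLG (-0.45) and both NOL probe sets (-0.46 and -0.58). With quantile normalization they were NYC1 (0.00) and the weaker NOL probe set (-0.06). When 1 array was left out, NYC1 ran from -0.06 to 0.03 (0.00 without control replicate 3, 0.03 without RNAi replicate 3), the weaker SGR probe set from -0.34 to 0.13 (above 0 without the same 2 arrays) and the weaker NOL probe set from -0.22 to 0.21 (below 0 without control replicate 1 or RNAi replicate 2). The cause was not tested, except that the unscaled values carry the larger scale of control replicate 3. Low signal limited CHLI and the second CHLH probe set.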
